A study of Arabidopsis thaliana with 44 samples.

Results

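The glutamine and glutamate enzymes described here are 10 Arabidopsis thaliana genes, taken by locus from the 27827 probe sets of the array: glutamine synthetases GLN1;1 (AT5G37600), GLN1;2 (AT1G66200), GLN1;3 (AT3G17820), GLN1;4 (AT5G16570) and GLN2 (AT5G35630), the glutamate synthases GLU1 (AT5G04140), GLU2 (AT2G41220) and GLT1 (AT5G53460), and the glutamate dehydrogenases GDH1 (AT5G18170) and GDH2 (AT5G07440). The genes were listed by locus, and the list was drawn up with earlier results of these data known. All 10 had 1 probe set each, and none of these probe sets (0) had the same values as another probe set on every array. The RNA came from dry seed, freshly harvested from mother plants of 3 near isogenic lines, named NIL DOG1, NIL DOG3 and NIL DOG6 for loci that delay germination. A near isogenic line carries a chromosome segment of another accession in a common background. The sources used here give neither the accessions nor the extent of each segment, and no line without such a segment is among the 44 arrays, so line differences compare 1 line with another.

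Plants of each line grew under 5 conditions, labelled 15C, 20C, N0 (low nitrate), LL (low light) and SL (standard light). Per the labels, 20C was the control for both 15C and N0, and SL was the control for LL. Each replicate was a bulk of 4 plants from a randomized complete block design. The 15 groups of line and condition had 3 arrays each, except NIL DOG3 under N0 with 2 arrays. The values are log2 intensities, so a difference of 1 on this scale is a doubling, and the number of arrays limits their precision. Genes were tested with limma, and a gene counted as called when its p, adjusted by Benjamini-Hochberg over the 27827 probe sets, was under 0.05.

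Glutamine synthetase joins ammonium to glutamate to make glutamine, and glutamate synthase then passes the amide group to 2-oxoglutarate, so that a molecule of glutamate is gained for amino acid synthesis. Cytosolic synthetases (the GLN1 genes) handle nitrogen taken up or remobilised, whereas the plastid enzymes GLN2 and GLU1 are known for recapturing ammonium released by photorespiration in leaves. Glutamate dehydrogenase of mitochondria mainly runs the other way, breaking glutamate down to 2-oxoglutarate and ammonium when carbon is short. In seeds, glutamine and asparagine from the mother plant are the main nitrogen that the embryo turns into storage protein.

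Array medians lay between 4.22 and 4.39, and arrays of the same group correlated at 0.987 to 0.994. All 11 markers of dry seed reserves stood above the median of all probe sets (4.29), with mean levels of 10.7 to 12.5. Of 12 pollen markers 6 stood above that median (2.33 to 7.52), led by AGP23, and of 8 green tissue markers 1 did (RBCS1A, 1.82 to 7.17 over the list). The seed was bulk material, so fewer cells of a type and less RNA per cell cannot be told apart. Quantile normalization within RMA would also hide a change in total RNA. Probe sequences were not used here, and whether paralogs of these families share probe signal was not tested.

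Of the 10 genes, 6 had mean levels well above the median of all probe sets, namely GLT1 (8.94), GLN1;3 (8.84), GLU2 (7.71), GDH2 (7.46), GLN1;1 (7.28) and GDH1 (6.97). The other 4 lay below it, namely GLN1;2 (3.14), GLN2 (2.99), GLN1;4 (2.98) and GLU1 (2.66). Levels of different probe sets are not a measure of relative abundance, but the size of a difference at such low levels depends on the background. The members also differed in how far they moved. The 15 group means of GLN1;1 spanned 1.67 log2 units, or 3.17-fold, from NIL DOG3 under LL to NIL DOG1 under N0. GLN2 spanned 1.15 units and GDH2 1.07 units, while GLT1 spanned 0.27 units and its residual SD between arrays of a group was 0.0520.

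**Figure D1:**
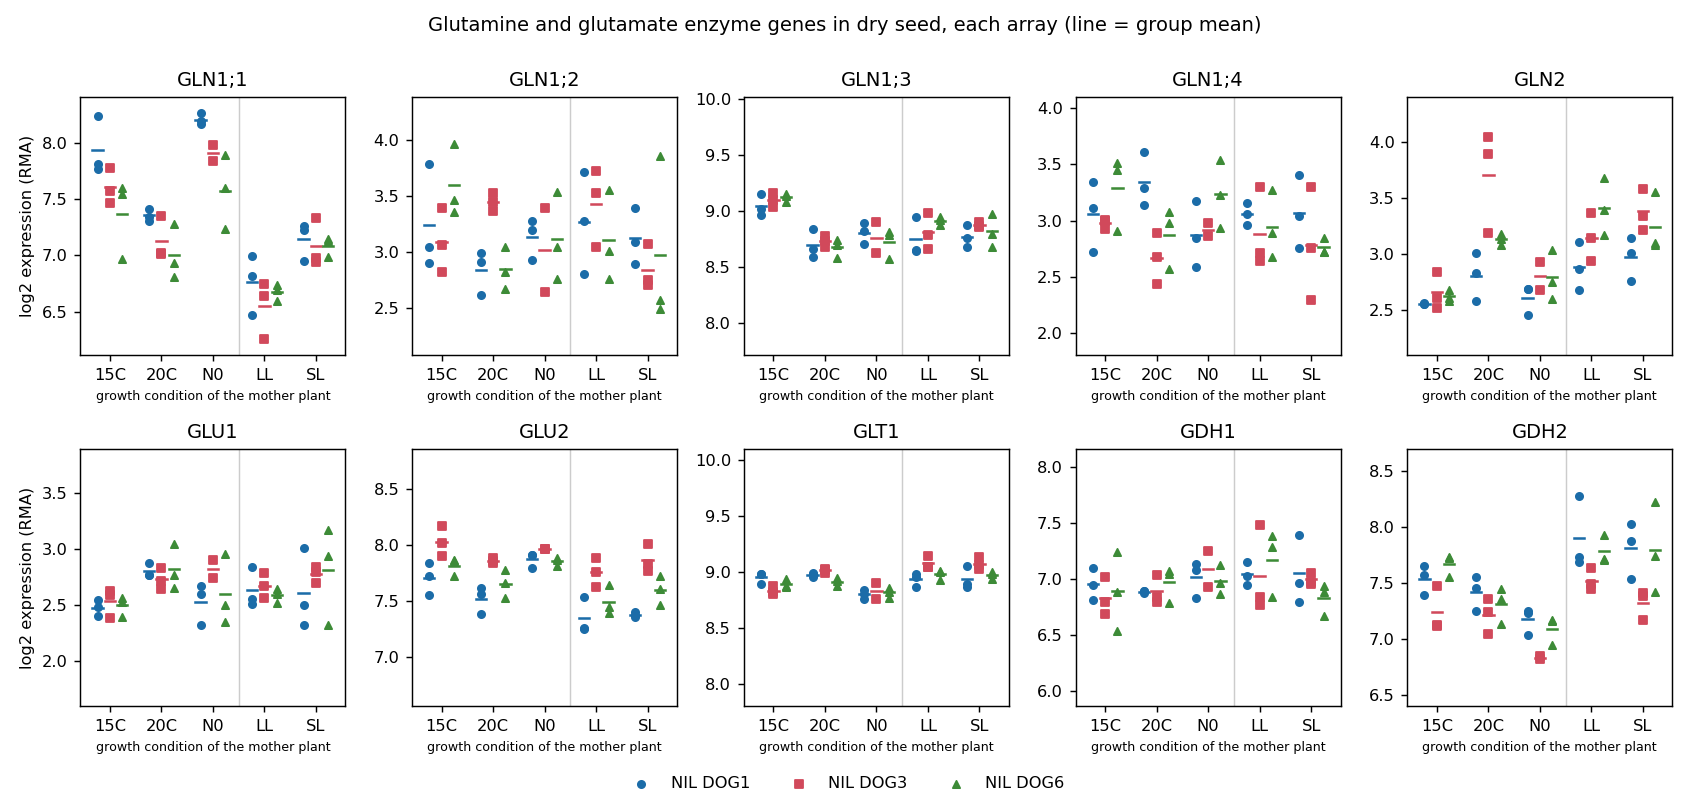
Log2 level of each of the 10 genes on every array (points), by growth condition on the x axis and coloured by line, with bars at the group means. Each panel has its own window of equal height on the y axis. GLN1;1 is lowest under LL and highest under N0, GLN2 has its highest points in NIL DOG3 at 20C, and GLT1 stays within a narrow band.

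At 15C, 5 of the 10 genes were called against 20C, where 25.3% of all probe sets were called (12.5% upward, 12.8% downward). GLN1;1, GLN1;3 and GLU2 rose, and GLN2 and GLU1 fell. The median difference of the 10 was 0.16, against 0.00 over all probe sets, and the median absolute difference was 0.22 against 0.12. Under N0, 5 of the 10 were called against the same 20C arrays, where 11.9% of all probe sets were called (5.86% upward, 6.07% downward). GLN1;1 and GLU2 rose, and GLN2, GLT1 and GDH2 fell. The median difference of the 10 under N0 was 0.045, against 0.008 over all probe sets, and the median absolute difference was 0.14 against 0.09. Under LL, 1 of 10 was called against SL, where 6.36% of all probe sets were called (2.73% upward, 3.63% downward). It was again GLN1;1, which fell. The median difference of the 10 under LL was 0.002, against 0.014 over all probe sets, and the median absolute difference was 0.093 against 0.087. Every called difference, itself a mean over the 3 lines, had the same sign in 3 of 3 lines. Neither this nor the separation of arrays within lines, given below for single genes, was counted over all probe sets. Since 15C and N0 share their 20C arrays, the values of both are given side by side for each gene.

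**Figure D2:**
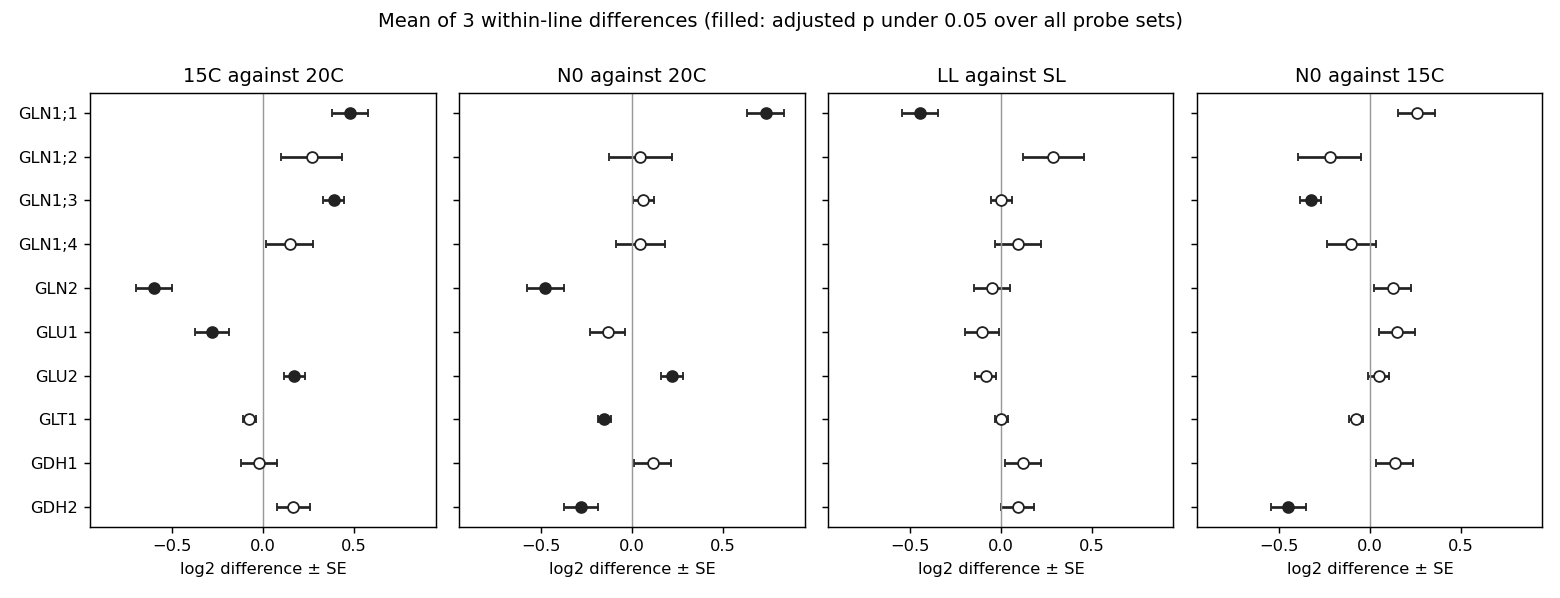
Mean log2 difference over the 3 lines with its SE (bars) for each of the 10 genes, in the comparisons of 15C with 20C, N0 with 20C, LL with SL and N0 with 15C. Filled points passed an adjusted p under 0.05. GLN1;1 is filled in the first 3 comparisons and lies to the left of 0 for LL.

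GLN1;1, a cytosolic glutamine synthetase, moved most. At 20C its arrays read 7.31, 7.34 and 7.42 in NIL DOG1, 7.02, 7.36 and 7.02 in NIL DOG3, and 6.80, 6.93 and 7.28 in NIL DOG6. At 15C they read 8.24, 7.81 and 7.77, then 7.78, 7.58 and 7.47, then 7.60, 7.55 and 6.97 in the same order of lines. Under N0 they read 8.27, 8.20 and 8.17 in NIL DOG1, 7.84 and 7.98 in NIL DOG3, and 7.60, 7.24 and 7.89 in NIL DOG6. Within NIL DOG1 and within NIL DOG3 every array of 15C and of N0 was above every 20C array, whereas in NIL DOG6 a 15C array and an N0 array fell among those of 20C. The gene rose 1.39-fold at 15C (0.48 ± 0.10, SE, limma adjusted p = 0.000288) and 1.67-fold under N0 (0.74 ± 0.10, adjusted p = 2.34e-06). Without the arrays numbered 1 the 15C difference was 0.30 (adjusted p = 0.128). The N0 level exceeded the 15C level by 0.26 ± 0.10, which did not pass (adjusted p = 0.0984).

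Low light moved the same gene down. Under SL its arrays read 7.26, 6.95 and 7.23 in NIL DOG1, 6.94, 7.33 and 6.97 in NIL DOG3, and 7.15, 7.13 and 6.99 in NIL DOG6. Under LL they read 6.82, 6.47 and 6.99, then 6.75, 6.26 and 6.64, then 6.70, 6.59 and 6.73. The arrays did not overlap within NIL DOG3 and NIL DOG6, and 1 LL array of NIL DOG1 (6.99) lay above 1 of its SL arrays. The level fell 1.36-fold (-0.45 ± 0.10, adjusted p = 0.00403). Over all lines the conditions ranked LL (6.66 ± 0.21, SD, n = 9), SL (7.11 ± 0.15), 20C (7.16 ± 0.22), 15C (7.64 ± 0.34) and N0 (7.90 ± 0.35, n = 8), and the neighbours SL and 20C lay within their spread of each other.

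Pollen markers moved in the same comparison as this LL difference. The 12 markers were listed knowing that pollen genes were lower under LL in earlier results of these data. Of them 6 were called lower under LL, against 3.63% of all probe sets, and 0 higher, against 2.73%. The mean level of the 12 was 3.85 to 4.35 on LL arrays against 4.32 to 6.10 on SL arrays. The 3 SL arrays numbered 2 had the highest values, 6.10, 5.93 and 5.54 in NIL DOG1, NIL DOG3 and NIL DOG6. Without these 3 arrays the GLN1;1 difference was -0.43 (adjusted p = 0.0238), and with the pollen mean as a covariate it was -0.49 (adjusted p = 0.0476). Without every array numbered 2 it was -0.32 (adjusted p = 0.189), and without those numbered 1 it was -0.49 (adjusted p = 0.0520).

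GLN1;3, a cytosolic synthetase known from root vascular tissue, rose at 15C alone among the conditions compared with 20C. At 20C its arrays read 8.84, 8.59 and 8.66 in NIL DOG1, 8.68, 8.78 and 8.73 in NIL DOG3, and 8.59, 8.74 and 8.70 in NIL DOG6. At 15C they read 9.02, 8.97 and 9.16, then 9.04, 9.16 and 9.10, then 9.08, 9.13 and 9.16. All 9 arrays at 15C lay above all 9 at 20C, a separation in this direction shown by 2.94% of all probe sets. The rise was 1.31-fold (0.39 ± 0.06, adjusted p = 1.73e-06), with 0.35, 0.37 and 0.45 in NIL DOG1, NIL DOG3 and NIL DOG6. Under N0 the same gene differed from 20C by 0.06 ± 0.06 (adjusted p = 0.624), and its arrays read 8.71, 8.82 and 8.89, then 8.63 and 8.90, then 8.78, 8.57 and 8.81. A direct comparison of N0 with 15C, in which 2 of the 10 genes were called against 12.9% of all probe sets, gave a fall of 1.25-fold (-0.33 ± 0.06, adjusted p = 0.000153), and these arrays did not overlap either, as for 0.884% of all probe sets in that direction. Between LL and SL the difference was 0.00 ± 0.06.

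GLN1;2, a cytosolic synthetase of ammonium assimilation in roots and shoots, was not called in any comparison. It ranged from 2.61 to 3.53 around a median of 2.99 at 20C and from 2.82 to 3.97 around 3.36 at 15C, a difference of 0.27 ± 0.17 (adjusted p = 0.280). GLN1;4, a cytosolic synthetase known for its rise in nitrogen-starved roots, ranged from 2.43 to 3.61 at 20C and from 2.59 to 3.54 under N0, with a difference of 0.05 ± 0.13. Over all lines, arrays of all conditions overlapped for both genes. Within NIL DOG6 the GLN1;2 arrays at 15C lay above those at 20C (0.75, limma adjusted p = 0.0898), while the NIL DOG3 difference was -0.36. Within NIL DOG3 the GLN1;4 arrays at 15C lay above those at 20C (0.31, adjusted p = 0.508), while the NIL DOG1 difference was -0.29. Both genes stood near the low end of the signal scale with residual SDs of 0.372 and 0.284. The SEs of their mean differences were 0.17 and 0.13, against 0.06 for GLN1;3.

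GLN2, the synthetase of plastids, stood low on the array and fell at 15C and under N0. At 20C its arrays read 2.83, 2.58 and 3.01 in NIL DOG1, 3.19, 4.05 and 3.89 in NIL DOG3, and 3.18, 3.13 and 3.08 in NIL DOG6. At 15C they read 2.56, 2.56 and 2.56, then 2.53, 2.85 and 2.61, then 2.61, 2.58 and 2.69. Under N0 they read 2.46, 2.69 and 2.69, then 2.94 and 2.68, then 2.61, 3.04 and 2.76. All 15C arrays sat in a band at the bottom of the range, below the 20C arrays of the same line in 3 of 3 lines, and the highest points of all were 2 arrays of NIL DOG3 at 20C. The mean fall was 1.52-fold at 15C (-0.60 ± 0.10, adjusted p = 1.33e-05) and 1.39-fold under N0 (-0.48 ± 0.10, adjusted p = 0.00125). Without the arrays numbered 3 the N0 difference was -0.39 (adjusted p = 0.154). LL differed from SL by -0.05 ± 0.10, which did not pass.

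The estimated size of the GLN2 fall varied between lines, although the test of this difference, given below, did not pass. It was -0.25, -1.05 and -0.51 at 15C, and -0.20, -0.90 and -0.33 under N0, in NIL DOG1, NIL DOG3 and NIL DOG6. The 20C level was 3.71 ± 0.46 (SD, n = 3) in NIL DOG3 and 2.81 ± 0.21 (SD, n = 3) in NIL DOG1, and the 15C levels of these lines were 2.66 ± 0.17 and 2.56 ± 0.00199. These 15C levels lay near background, which limits how large a fall could be read in each line. A moderated F test of the difference between the lines in the response to 15C gave an unadjusted p of 0.00735 for this gene in limma, which did not pass over all probe sets (adjusted p = 0.655). That F test called 11 probe sets for 15C (0.0395%), 0 for N0 and 1 for LL (0.00359%), and none of the 10 genes was among them. For N0 the smallest unadjusted p among the 10 was 0.0248, again for GLN2.

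**Figure D3:**
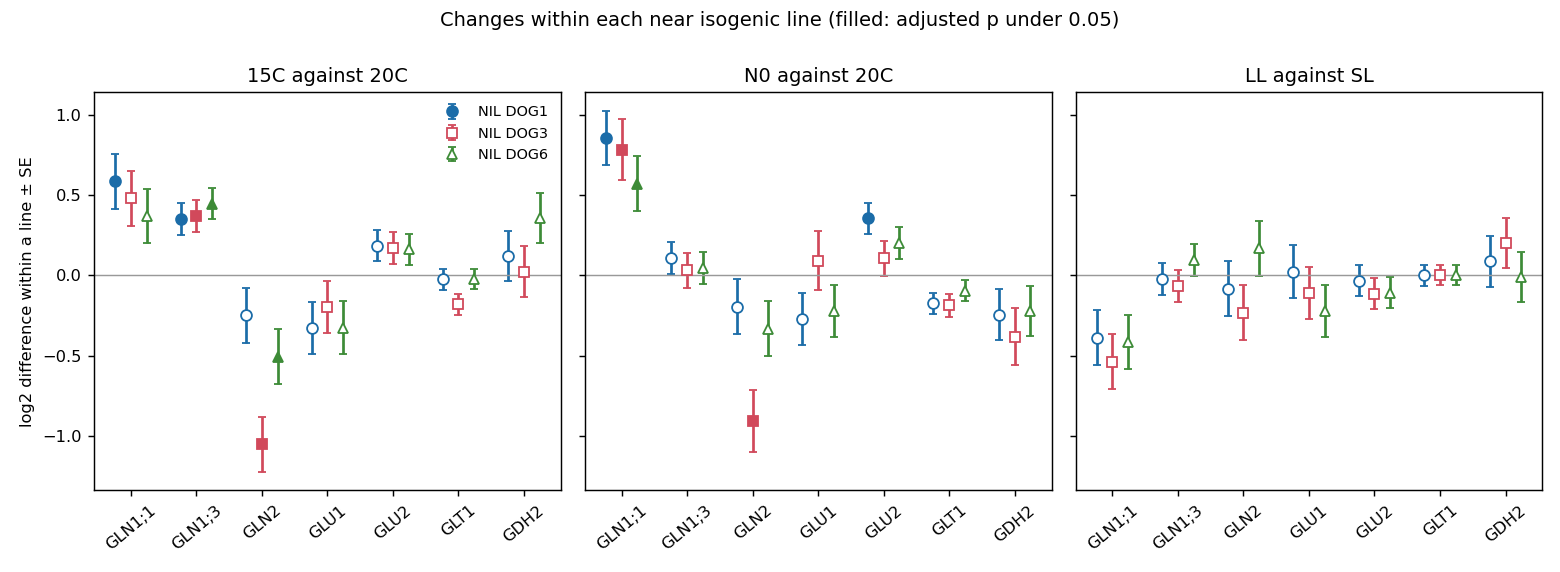
Log2 difference within each of the 3 lines (points with SE bars) for the 7 genes called in a mean comparison of conditions, for 15C and N0 against 20C and for LL against SL. Filled points passed an adjusted p under 0.05. The GLN2 points of NIL DOG3 lie lowest, near -1.05 at 15C and -0.90 under N0.

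GLU1, the main ferredoxin-dependent glutamate synthase of leaves, also stood low and fell at 15C. Its arrays read 2.77, 2.88 and 2.76, then 2.64, 2.71 and 2.83, then 2.65, 2.76 and 3.05 at 20C, in NIL DOG1, NIL DOG3 and NIL DOG6. At 15C they read 2.40, 2.54 and 2.48, then 2.59, 2.38 and 2.62, then 2.53, 2.39 and 2.57. All 9 arrays at 15C lay below all 9 at 20C, as for 2.43% of all probe sets in that direction. The fall was 1.22-fold (-0.28 ± 0.09, adjusted p = 0.0229). It did not pass without array 2 of NIL DOG3 at 15C or array 3 of NIL DOG6 at 20C, with an adjusted p of up to 0.0618. Under N0 its arrays spread from 2.32 to 2.95 and differed from 20C by -0.13 ± 0.10 (adjusted p = 0.485).

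GLU2, a second ferredoxin-dependent synthase and known as the form of roots, moved the opposite way. At 20C its arrays read 7.56, 7.39 and 7.61 in NIL DOG1, 7.85, 7.89 and 7.84 in NIL DOG3, and 7.78, 7.66 and 7.52 in NIL DOG6. At 15C they read 7.55, 7.84 and 7.72, then 8.17, 8.02 and 7.90, then 7.72, 7.87 and 7.86. Under N0 they read 7.91, 7.80 and 7.92, then 7.96 and 7.97, then 7.89, 7.86 and 7.82. The N0 arrays were all above the 20C arrays of their own line in 3 of 3 lines, and the 15C arrays in 1 of 3. The gene rose 1.13-fold at 15C (0.17 ± 0.06, adjusted p = 0.0204) and 1.16-fold under N0 (0.22 ± 0.06, adjusted p = 0.00921). The 15C rise was 0.13 with each array centred on its median (adjusted p = 0.0702). It also did not pass on leaving out array 2 of NIL DOG1 or array 1 of NIL DOG3 at 15C, or array 2 of NIL DOG1 or array 3 of NIL DOG6 at 20C, with an adjusted p of up to 0.0574. LL and SL differed by -0.08 ± 0.06, which did not pass.

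GLT1, the NADH-dependent glutamate synthase, had the smallest spread of the 10 genes and fell slightly under N0. At 20C its arrays read 8.95, 8.98 and 8.99 in NIL DOG1, 9.02, 9.03 and 8.99 in NIL DOG3, and 8.92, 8.95 and 8.87 in NIL DOG6. Under N0 they read 8.80, 8.76 and 8.84, then 8.76 and 8.90, then 8.82, 8.86 and 8.77. Every N0 array was below every 20C array of its line, while arrays of different lines overlapped. The fall was 1.11-fold (-0.15 ± 0.04, adjusted p = 0.00564). It did not pass with only the N0 and 20C arrays in the fit (adjusted p = 0.0549). At 15C the arrays read 8.89, 8.98 and 8.98, then 8.80, 8.88 and 8.82, then 8.86, 8.93 and 8.88, a difference from 20C of -0.08 ± 0.04 (adjusted p = 0.142).

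GDH2, the alpha subunit of glutamate dehydrogenase, was lowest under N0. Its arrays there read 7.04, 7.26 and 7.24 in NIL DOG1, 6.82 and 6.85 in NIL DOG3, and 6.95, 7.17 and 7.16 in NIL DOG6. At 20C they read 7.25, 7.56 and 7.46, then 7.36, 7.05 and 7.24, then 7.14, 7.45 and 7.36. The fall against 20C was 1.22-fold (-0.28 ± 0.09, adjusted p = 0.0456), with no overlap in NIL DOG3 alone. It did not pass on leaving out any 1 of 12 of the 17 arrays, with an adjusted p of up to 0.104. It still passed without array 1 of NIL DOG1, array 2 of NIL DOG3 or array 1 of NIL DOG6 at 20C, or array 2 or 3 of NIL DOG6 under N0.

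Against 15C the GDH2 level under N0 was 1.36-fold lower (-0.45 ± 0.09, adjusted p = 0.00106). The 15C arrays read 7.58, 7.66 and 7.39, then 7.11, 7.48 and 7.13, then 7.73, 7.73 and 7.55, and exceeded those under N0 within each line. Neither the comparison of 15C with 20C (0.17 ± 0.09, adjusted p = 0.202) nor that of LL with SL (0.09 ± 0.09) passed for this gene. Under LL it read 7.74, 7.69 and 8.28, then 7.49, 7.44 and 7.63, then 7.71, 7.72 and 7.93, and under SL it spread from 7.17 to 8.23. GDH1, the beta subunit of the same enzyme, was not called in any comparison. Its median was 6.89 at 15C, 6.89 at 20C, 7.02 under N0, 7.03 under LL and 6.96 under SL, and its arrays spread from 6.54 to 7.49 over all conditions. Whether the 2 subunit genes responded differently was not tested.

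Within single lines, 11 differences of the 10 genes from their control were called, 8 higher and 3 lower, and none of them was between LL and SL, where 0.579%, 0.0144% and 2.5% of all probe sets were called in NIL DOG1, NIL DOG3 and NIL DOG6. At 15C these were 2 genes in each line, where 9.73%, 9.19% and 11.7% of all probe sets were called in the same order. They were GLN1;3 in every line, GLN1;1 in NIL DOG1 (0.59 ± 0.17) and GLN2 in NIL DOG3 and NIL DOG6. Under N0 they were 2, 2 and 1 genes, where 2.75%, 2.96% and 4.57% were called. They were GLN1;1 in every line (0.85, 0.78 and 0.57), GLU2 in NIL DOG1 (0.35 ± 0.10) and GLN2 in NIL DOG3. The GLN2 call in NIL DOG6 at 15C did not pass on leaving out any 1 of its 6 arrays, with an adjusted p of up to 0.137. Of the other 10 calls, those of GLN1;1 under N0 in NIL DOG1, of GLN1;3 at 15C in NIL DOG6 and of GLN2 at 15C in NIL DOG3 passed whichever single array was left out, and the remaining 7 each did not pass without at least 1 of their arrays.

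The lines themselves differed in 4 of the 10 genes as a mean over the 5 conditions. Between NIL DOG3 and NIL DOG1, 3 of the 10 were called, where 11.1% of all probe sets were. GLU2 was higher in NIL DOG3 (0.33 ± 0.04, adjusted p = 8.90e-07), GLN2 was higher (0.37 ± 0.08, adjusted p = 0.000819) and GDH2 was lower (-0.34 ± 0.07, adjusted p = 0.000771). Between NIL DOG6 and NIL DOG1, 2 of 10 were called, where 8.25% of all were. GLN1;1 was lower in NIL DOG6 (-0.34 ± 0.08, adjusted p = 0.00213) and GLN2 higher (0.28 ± 0.08, adjusted p = 0.0168). Between NIL DOG6 and NIL DOG3, 2 of 10 were called, where 9.61% of all were, with GLU2 lower (-0.21 ± 0.04, adjusted p = 0.000998) and GDH2 higher (0.31 ± 0.07, adjusted p = 0.00346) in NIL DOG6. Each of these 7 differences had 1 sign in 5 of 5 conditions. The calls rest on the mean of the same 5 differences, and this agreement in sign was not counted over all probe sets. Leaving out all arrays of 1 replicate number ended 6 of the 7 calls, the exception being GLU2 between NIL DOG3 and NIL DOG1. Among these 6 the highest adjusted p was 0.211, for GLN2 between NIL DOG6 and NIL DOG1. GLU2 stood highest in NIL DOG3 in every condition, with arrays of 7.83, 8.01 and 7.77 under SL against 7.40, 7.36 and 7.38 in NIL DOG1 and 7.73, 7.47 and 7.60 in NIL DOG6.

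At single conditions, 4 of these line differences were called. The share of all probe sets called there was 2.6% between NIL DOG3 and NIL DOG1 at 20C, 3.12% under LL and 2.56% under SL, and 2.14% between NIL DOG6 and NIL DOG1 under N0. GLU2 was higher in NIL DOG3 than in NIL DOG1 under SL (0.49 ± 0.10, adjusted p = 0.00168) and under LL (0.41 ± 0.10, adjusted p = 0.0107). GLN2 was higher in NIL DOG3 than in NIL DOG1 at 20C (0.90 ± 0.17, adjusted p = 0.000948). GLN1;1 was lower in NIL DOG6 than in NIL DOG1 under N0 (-0.64 ± 0.17, adjusted p = 0.0359), while the lines lay within 0.09 of each other under LL for that pair. Among the 40 nearest measured genes in the order of the TAIR10.1 gene table, 6 (15%) around GLU2 and 5 (12.5%) around GDH2 were called between NIL DOG3 and NIL DOG1, and 2 (5%) around GLN2, against 11.1% of all probe sets in that mean comparison. Around GLN1;1, 5 (12.5%) were called between NIL DOG6 and NIL DOG1, against 8.25% of all. Whether a sequence difference between the lines lies under the probes of these genes was not tested.

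The 10 genes were set beside 42 others of the pathways that supply or use glutamine and glutamate, in 8 lists that were drawn up with earlier results of these data known. At 15C, 3 of the 42 rose and 18 fell, with a median difference of -0.14, and under N0 3 rose and 14 fell, with a median of -0.15. Against 25.3% and 11.9% of all probe sets these lists therefore held 21 and 17 called genes, most of them lower. LL had 4 higher and 4 lower, where 2.73% of all probe sets were called upward and 3.63% downward. For every list below, the shares of all probe sets called upward and downward were 12.5% and 12.8% at 15C. Under N0 they were 5.86% and 6.07%. The closest relatives, GLN1;5 and GDH3, were not called at 15C or under N0, and GLN1;5, a seed-expressed synthetase, was lower under LL (-0.20 ± 0.06, adjusted p = 0.0257).

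Upstream of glutamine synthetase, 3 of 4 genes of nitrate and nitrite reduction fell in both comparisons with 20C. NIR1, the nitrite reductase that yields ammonium, changed by -1.36 ± 0.13 at 15C and -1.53 ± 0.14 under N0. UPM1, which makes the sirohaem cofactor of that enzyme, changed by -1.41 ± 0.10 and -1.42 ± 0.10, and the nitrate reductase NIA1 by -1.73 ± 0.13 and -1.48 ± 0.14. NIA1 also fell under LL (-0.44 ± 0.13). Of the 6 genes that supply 2-oxoglutarate and reductant, 5 fell at 15C and 4 under N0. They included the ferredoxin gene FD3 (-0.68 ± 0.06 and -0.70 ± 0.06) and the root-type ferredoxin reductases RFNR1 (-0.89 ± 0.09 and -0.92 ± 0.10) and RFNR2 (-1.09 ± 0.13 and -0.82 ± 0.14), which pass electrons to nitrite reductase and to ferredoxin-dependent glutamate synthase. The cytosolic isocitrate dehydrogenase cICDH, a source of 2-oxoglutarate, fell at 15C (-0.25 ± 0.06) and under N0 (-0.26 ± 0.07) and rose under LL (0.38 ± 0.06, adjusted p = 0.000269).

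**Figure D4:**
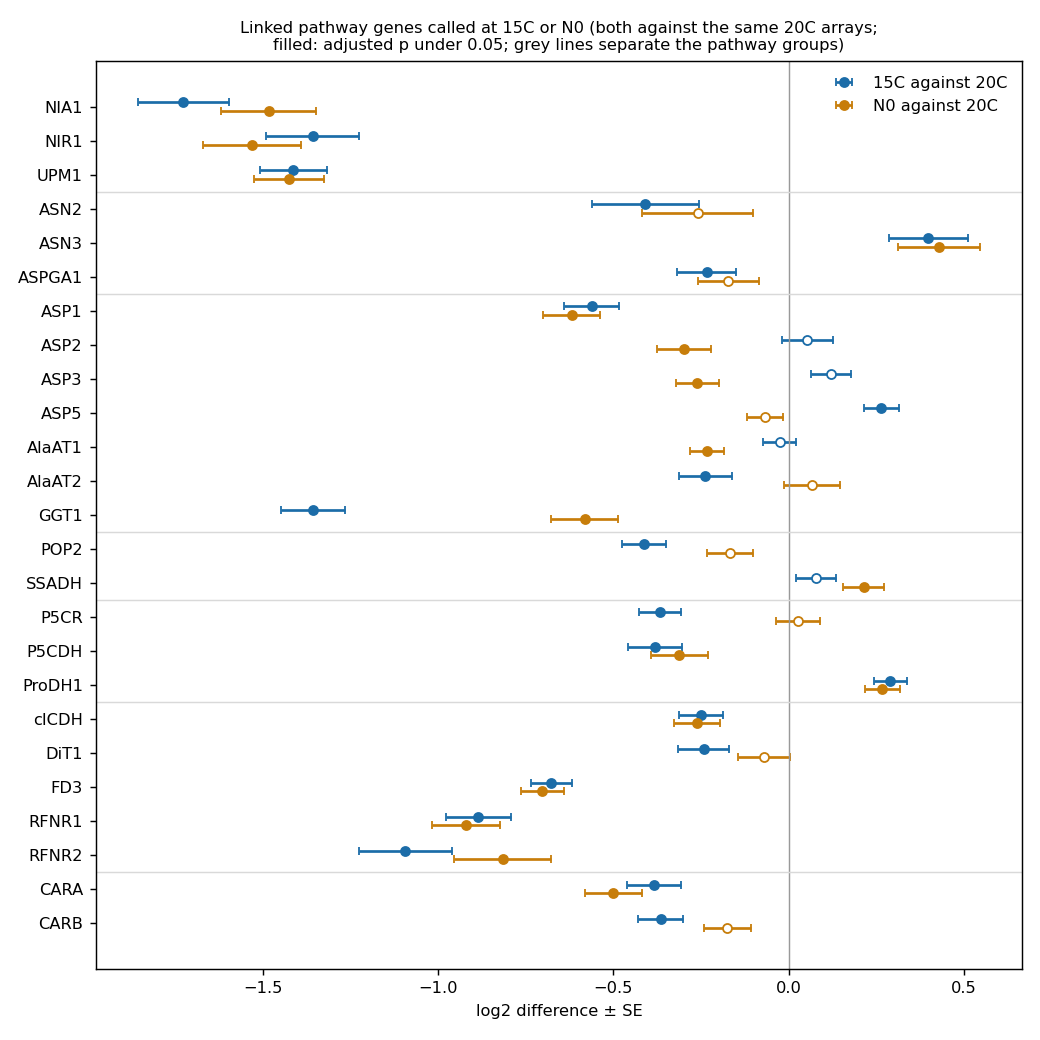
Mean log2 difference with SE for the genes of the linked pathway lists that were called at 15C or under N0, each against the same 20C arrays. Filled points passed an adjusted p under 0.05. NIA1, UPM1 and NIR1 lie below -1.3 in both comparisons, GGT1 lies at -1.36 at 15C and -0.58 under N0, and ASN3 and ProDH1 lie above 0 in both.

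Among 9 aminotransferases, which move the amino group of glutamate to and from other carbon skeletons, 1 rose and 3 fell at 15C. Under N0, 0 rose and 5 fell. Of all probe sets, 12.5% were called upward and 12.8% downward at 15C, and 5.86% and 6.07% under N0. GGT1, a peroxisomal glutamate:glyoxylate aminotransferase of photorespiration, was 2.56-fold lower at 15C (-1.36 ± 0.09, adjusted p = 2.89e-13) and 1.50-fold lower under N0 (-0.58 ± 0.10, adjusted p = 3.77e-05). The aspartate aminotransferase ASP1 of mitochondria changed by -0.56 ± 0.08 and -0.62 ± 0.08, and the plastid form ASP5 rose at 15C (0.26 ± 0.05). AlaAT2 fell at 15C (-0.24 ± 0.08), and ASP2 (-0.30 ± 0.08) and ASP3 (-0.26 ± 0.06) fell under N0. Under LL, ASP2 (0.28 ± 0.07) and ASP3 (0.19 ± 0.06) rose, and GGT2 fell (-0.24 ± 0.05).

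The asparagine list held 5 genes. ASN3, an asparagine synthetase that takes its amide group from glutamine, rose at 15C (0.40 ± 0.11, adjusted p = 0.00727) and under N0 (0.43 ± 0.12, adjusted p = 0.0115). ASN2 (-0.41 ± 0.15) and the asparaginase ASPGA1 (-0.23 ± 0.08) fell at 15C. None of the 5 was called under LL.

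In the GABA shunt, which takes glutamate by decarboxylation and returns its carbon to the citrate cycle, 1 of 7 genes was called in each comparison with 20C, against 25.3% of all probe sets at 15C and 11.9% under N0, so these counts lay near or below the background. POP2, the GABA transaminase, fell at 15C (-0.41 ± 0.06), and SSADH, succinic semialdehyde dehydrogenase, rose under N0 (0.21 ± 0.06). Of 6 proline genes, P5CDH and ProDH1, both of proline breakdown to glutamate, were called in 3 comparisons in opposite directions. P5CDH changed by -0.38 ± 0.08 at 15C, -0.31 ± 0.08 under N0 and 0.34 ± 0.08 under LL, and ProDH1 by 0.29 ± 0.05, 0.27 ± 0.05 and -0.16 ± 0.05. P5CR, the last enzyme of proline synthesis, fell at 15C (-0.37 ± 0.06). Of the 3 genes of glutamine sensing and use, CARA, the glutamine-binding subunit of carbamoyl phosphate synthetase, fell at 15C (-0.38 ± 0.08) and under N0 (-0.50 ± 0.08), and CARB fell at 15C (-0.37 ± 0.06).

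Markers of other tissues and of seed reserves also moved in these comparisons. At 15C 2 of 12 pollen markers and 3 of 11 dry seed markers were lower, as were 12.8% of all probe sets. Under N0 the dry seed markers SESA1 (-0.58), SESA2 (-0.69) and SESA4 (-0.66), of 11, and the green tissue marker RBCS1A (-0.62), of 8, were lower, as were 6.07% of all. Between N0 and 15C, where GLN1;3 and GDH2 were lower under N0, 2 of 11 dry seed markers and 1 of 8 green tissue markers were lower as well (6.66% of all probe sets), and 2 of 12 pollen markers were higher (6.27% of all). Between lines, 4 of 11 dry seed markers (CRU2, SESA1, SESA2 and SESA4) were lower in NIL DOG3 and in NIL DOG6 than in NIL DOG1, as were 5.01% and 4.23% of all probe sets. SESA2 differed most, by -0.59 and -0.45, and 1 of 12 pollen markers (PPME1) was lower in NIL DOG3. Both comparisons share the arrays of NIL DOG1. The pollen mean was 4.12 to 4.70 on 15C arrays and 4.42 to 5.36 on N0 arrays, against 4.38 to 5.16 at 20C. With this mean as a covariate the same number of the 10 genes was called at 15C (5), and under N0 4 were, GDH2 having an adjusted p of 0.0541. The shares of all probe sets called in that fit are not given here, so these counts have no background beside them. The part of the seed reserve and green tissue markers in the condition and line differences of the 10 genes was not tested.

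Over the 15 group means, the pattern of GLN1;1 was most like those of DMR6 (r = 0.960), PSY1 (r = 0.948) and AT5G66080 (r = 0.944) among all other probe sets. That of GLN2 was most like AT5G56940 (r = 0.934), AT3G51270 (r = 0.906) and GAPC2 (r = 0.902), and that of GDH2 most like HK3 (r = 0.953), AT4G33540 (r = 0.940) and PETC (r = 0.914). Among the 10 genes themselves, the most opposed patterns were those of GLU2 and GDH2 (r = -0.805) and of GLN1;1 and GLT1 (r = -0.714), and the most alike were GLN2 and GLT1 (r = 0.686). These correlations describe 15 points from shared arrays and carry no test.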

How the data were processed

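The authors deposited 1 table of log2 values for 44 arrays, made with RMA (background correction, quantile normalization, probe summary) per the submitters' processing notes. Version of RMA, array annotation and build: not given in the sources used here. Samples are labelled total RNA, although the labels' extraction protocol also describes polysomal RNA. Gene names came from the files' loci and the TAIR10.1 gene table, which held all 10 members. P-values measure the spread between bulks of plants.

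Means of the 15 groups were fitted together for all 27827 probe sets with limma 3.58.1 (lmFit, eBayes) in R 4.3.3, with 29 residual degrees of freedom, no filter and no replicate block. The median residual SD was 0.199. Condition effects are means of the within-line differences, and line effects are means of the within-condition differences. The N0 mean effect weights lines equally, although NIL DOG3 had 2 arrays. Tests were two-sided, adjusted by Benjamini-Hochberg at 0.05. The median SE was 0.0922 for 15C and LL, 0.0960 for N0 and 0.160 within a line. The fit was tested on simulated data.

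All 10 members are named. Of each linked list, up to 4 called genes with the largest difference per condition comparison are named, and for the 3 members with the widest range, the 3 probe sets most like them. Members, lists and markers were chosen with earlier results of these data known. Alternatives were a replicate block, a filter on dim probe sets, centring, array weights, only the arrays compared, and leaving out each replicate number. The pollen covariate, omission of the SL arrays numbered 2 and omission of single arrays were chosen after seeing the data.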

Additional observations from a re-analysis of the deposited data

How the results depend on the processing

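Of 20 called member differences between conditions or lines, 4 kept their call under every alternative in which they were tested, and none changed sign. They were GLN1;1 under N0, GLN1;3 and GLN2 at 15C, and GLU2 between NIL DOG3 and NIL DOG1. GLN2 was not tested with the dim probe sets filtered out. Of 183 comparisons with an alternative, 29 lost the call, 26 of them on leaving out a replicate number, which leaves fewer arrays. The other 3 were GLU2 at 15C after centring, GLT1 under N0 with only the arrays compared and GDH2 under N0 with the pollen covariate. Without a replicate number, calls were lost at 15C by GLN1;1 (number 1), GLU1 and GLU2 (2 or 3), under N0 by GLU2 (2 or 3), GLN2 (3), GLT1 and GDH2 (any), under LL by GLN1;1 (1 or 2), and between N0 and 15C by GLN1;3 and GDH2 (2). Between lines they were lost by GLN2 and GDH2 for NIL DOG3 and NIL DOG1 (2), GLN1;1 (1) and GLN2 (2 or 3) for NIL DOG6 and NIL DOG1, and GLU2 (2) and GDH2 (2 or 3) for NIL DOG6 and NIL DOG3. With the dim probe sets filtered out, 3 members were called at 15C, since GLN2 and GLU1 were no longer tested. With only the arrays compared in the fit, 5 differences within lines were called in place of 11. Without each replicate number in turn, members called ranged from 3 to 4 at 15C, 1 to 3 under N0, 0 to 1 under LL, 0 to 2 between N0 and 15C, 1 to 3 between NIL DOG3 and NIL DOG1, 1 between NIL DOG6 and NIL DOG1, 0 to 2 between NIL DOG6 and NIL DOG3, and 2 to 5 within lines. The shares of all probe sets called in these fits are not given here. A loss of calls particular to these genes therefore cannot be told from a general one. With the replicate block the counts were 5 at 15C, 5 under N0, 1 under LL and 11 within lines, and with a block within conditions 4, 2 and 2 for the line pairs in that order. The replicate numbers were not taken as pairs in the main fit. Not every same-numbered pair deviated together, but blocks of the design need not make every pair do so. Residuals of same-numbered arrays correlated at -0.139 to 0.398 between lines (median 0.0443, 12 of 43 pairs over 0.1), against -0.267 to 0.217 for different numbers (median -0.0141, 10 of 86). Between a condition and its control the medians were 0.0337 (5 of 26) and -0.0117 (6 of 52). The SL arrays numbered 2 of all 3 lines also shared high pollen values, so some sharing by number is not excluded. GLN1;2, GLN1;4, GLN2 and GLU1 lay near background, which limits what their folds can show.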
